A study of Rattus norvegicus with 2 samples.

Results

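Cadherins and connexins join neighbouring cells, and this account follows 10 of their genes in rat dental papilla cells: the cadherins Cdh1, Cdh2, Cdh3, Cdh11 and Cdh13 and the connexins Gja1, Gja4, Gja5, Gjc1 and Gjb2. They were chosen by name among 15164 genes with a symbol on the array. Each was found through the RefSeq accession that the scanner files give for its probes, outside the control spots, and all 10 were present, with 12 probes and 39 spots. Dental papilla cells are the mesenchyme of the tooth germ, from which the dentin-forming odontoblasts arise. The cells were primary cultures from rats of postnatal days 1 to 3. Both groups were held for 3 days in an odontogenic medium (OS) with 8% serum, dexamethasone at 0.1 mM, ascorbic acid at 0.2 mM and β-glycerophosphate at 10 mM. The OS group received no melatonin, and the OS+melatonin group received the pineal hormone at 10 nM. Each group was read on 1 one-colour array, so no replicate error exists, no test between the groups was possible, and every ratio compares 2 arrays. The labels do not say how many cultures stand behind an array, and the sample titles end in numbers that no label explains.

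Classical cadherins bind the same cadherin on the next cell through their extracellular repeats, and inside the cell they hold β-catenin and, through α-catenin, the actin skeleton. Which cadherin a cell makes is a mark of its kind: E-cadherin (Cdh1) of epithelia, N-cadherin (Cdh2) and cadherin 11 of mesenchyme. Connexins assemble into hexameric channels that dock between cells and pass ions and small molecules, and connexin 43 (Gja1) is the main connexin of bone cells and odontoblasts.

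Of the 10 genes 7 were measured, meaning that at least 1 probe was called well above background on both arrays by the scanner software, as were 54.3% of all genes with a symbol. The measured genes were Cdh2, Cdh3, Cdh11, Cdh13, Gja1, Gja5 and Gjc1. Cdh1, Gja4 and Gjb2 fell short of that call on both. A ratio below is OS+melatonin over OS, on the log2 scale after each array's 75th percentile was set to 0. None of the 7 was at least 2-fold higher with melatonin, as were 0.255% of 8231 measured genes, and none was at least 2-fold lower, as were 0.705% (0.96% either way). All 7 ratios were above 0, as were 57.6% of measured genes. Their median was 0.16, against 0.039 over all measured genes, whose SD was 0.29. The ratios ran from 0.12 for Gja1 and Cdh13 to 0.88 for Gja5. The direction rests on the scaling: before scaling the 75th percentiles were 428 (OS) and 329 (melatonin), a shift of 0.38 in log2. With no scaling, an alternative chosen after seeing the data, 5 of the 7 ratios were below 0. Of all measured genes 7.06% were then above 0, and their median was -0.34.

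**Figure D1:**
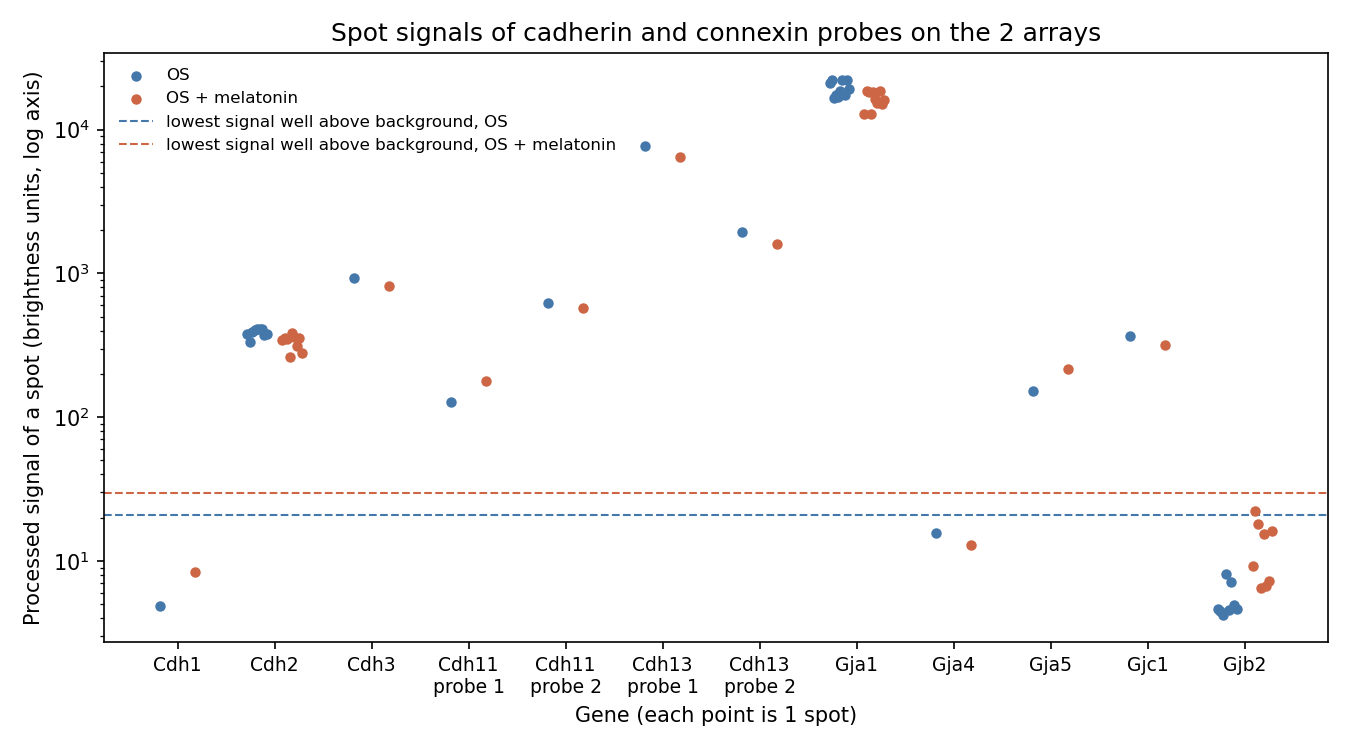
Processed signal of every usable spot (brightness units, log axis) of the 12 probes of the cadherin and connexin genes on the OS array (blue) and the OS+melatonin array (orange), before scaling between arrays. Dashed lines mark the lowest signal called well above background on each array, 20.7 and 29.6; the spots of Cdh1, Gja4 and Gjb2 lie below the line of their own array.

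The cadherin with the brightest probe was Cdh13, T-cadherin, which lacks a cytoplasmic tail and is held in the membrane by a lipid anchor. Its brighter probe read 7642 with OS and 6403 with OS+melatonin. Its other probe read 1928 and 1608. Both signals were lower on the melatonin array before scaling, as most signals were, and after scaling the probes gave nearly equal log2 ratios of 0.13 and 0.12. The brighter probe stood at percentile 95.6 of all OS array probes and at 96.0 with OS+melatonin. Brightness also depends on the probe, so the ranks of different genes are no order of transcript levels.

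Cdh2, N-cadherin, the classical cadherin of mesenchyme and nerve, was read by a probe printed 10 times, of which 1 spot was flagged as an outlier and left out. On the OS array its 9 spots had a lowest signal of 331, a median of 392 and a highest of 411. On the melatonin array they had a lowest of 263, a median of 349 and a highest of 384. The spots of the arrays overlapped. The mean log2 ratio after scaling was 0.16 with an SD of 0.23 between spots, and 6 of the 9 spots were above 0. That SD is of single spots and holds nothing of the spread between cultures.

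Cdh11, cadherin 11 or OB-cadherin, a type II cadherin of mesenchyme and osteoblasts, was read by a pair of probes that did not give the same ratio. The brighter probe read 626 with OS and 574 with OS+melatonin, a log2 ratio of 0.26 after scaling. The dimmer probe read 127 and 178, a ratio of 0.86. Together with that of Gja5 it was the only measured probe of the 10 genes with a higher signal on the melatonin array before scaling. The gene mean of 0.56 (1.47-fold) therefore lies between unequal values, and the brighter probe alone gives less than the mean. Of 2004 measured probes within 0.5 log2 units of the dimmer probe in brightness, 1.60% had a ratio as high, and for the brighter probe 16.6% of 1806 did.

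Cdh3, P-cadherin, best known from placenta and from the basal layer of epithelia, had 1 spot, which read 927 with OS and 818 with OS+melatonin. Its log2 ratio was 0.20, and its signal stood at percentile 81.6 of all probes on the first array and 82.8 on the second. Cdh1, E-cadherin, the cadherin of epithelial junctions, read 4.89 and 8.43. Neither was well above background. The 153 negative control spots ran from 4.12 to 6.45 on the OS array and from 5.89 to 6.92 on the melatonin array, so that Cdh1 lay within their range on the first and above it on the second. Cdh3 and Cdh1 are next to each other among protein-coding genes in the RefSeq table of assembly GRCr8, so a gene well above background adjoined one that was not. Cdh11 adjoins Cdh5, VE-cadherin of endothelium, which was well above background on both arrays, with low signals of 45.7 and 33.1.

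The connexins spanned a wider range of signal. Promoter sequences were at hand for 4 of the 10 genes, all connexins, and are shown because Gja1 and Gja5 were measured whereas Gja4 and Gjb2 were not. Each line gives the 250 bases before the RefSeq gene start in assembly GRCr8, 5′ to 3′ on the strand of the gene. Capitals mark the GC box (GGGCGG), the TATA box (TATAAA) and the AP-1 site (TGAGTCA or TGACTCA), each searched on both strands. The windows lie at chr20:36302314-36302563 (plus strand) for Gja1, chr2:187290977-187291226 (plus) for Gja5, chr5:144920325-144920574 (minus) for Gja4 and chr15:35381954-35382203 (minus) for Gjb2.
Gja1: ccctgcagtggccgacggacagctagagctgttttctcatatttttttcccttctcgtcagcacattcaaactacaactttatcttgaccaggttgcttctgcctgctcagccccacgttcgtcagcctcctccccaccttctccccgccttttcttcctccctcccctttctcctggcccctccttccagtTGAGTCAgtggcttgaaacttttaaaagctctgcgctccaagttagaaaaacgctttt
Gja5: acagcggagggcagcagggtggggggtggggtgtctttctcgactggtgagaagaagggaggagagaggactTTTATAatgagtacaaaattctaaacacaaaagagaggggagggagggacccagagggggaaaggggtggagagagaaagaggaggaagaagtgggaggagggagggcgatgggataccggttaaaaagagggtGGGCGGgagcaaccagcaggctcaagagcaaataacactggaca
Gja4: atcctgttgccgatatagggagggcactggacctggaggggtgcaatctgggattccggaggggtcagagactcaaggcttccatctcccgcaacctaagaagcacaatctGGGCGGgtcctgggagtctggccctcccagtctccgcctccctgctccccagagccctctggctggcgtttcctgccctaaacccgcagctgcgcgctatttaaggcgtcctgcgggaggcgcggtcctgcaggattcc
Gjb2: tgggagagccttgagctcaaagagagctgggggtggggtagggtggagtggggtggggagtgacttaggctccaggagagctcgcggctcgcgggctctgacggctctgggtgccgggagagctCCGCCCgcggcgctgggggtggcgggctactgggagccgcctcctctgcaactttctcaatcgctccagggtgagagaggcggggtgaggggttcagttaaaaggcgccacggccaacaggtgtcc
The Gja1 window holds an AP-1 site, ending 52 bases before the start, and no GC box. Of 33465 windows of this length in the table, 4.05% hold an AP-1 site. A GC box stands in the windows of Gja5, Gja4 and Gjb2, at 39, 134 and 121 bases from the start, and in 30.5% of all windows. The Gja5 window also holds the letters of a TATA box, on the opposite strand and 173 bases away, as do 12.9% of all windows. The G and C content was 51.2% for Gja1, 54.8% for Gja5, 63.2% for Gja4 and 67.2% for Gjb2, beside a median of 51.2% over all windows. A match of letters is a description and not a binding site.

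Gja1, connexin 43, was the brightest of the 10 genes, at percentile 98.5 of all probes with OS and 98.6 with OS+melatonin. Its probe was printed 10 times and all 10 spots were usable. On the OS array the lowest spot read 16721, the median was 18818.5 and the highest was 22224. On the melatonin array the lowest was 12882, the median 16243 and the highest 18688. The 2 sets of spots overlapped, and no spot was saturated. After scaling the mean log2 ratio was 0.12 (1.09-fold) with an SD of 0.30 between spots, with 6 spots above 0 and 4 below. The single spot ratios of Gja1 ran from -0.33 to 0.50, so at this brightness 1 spot alone could have shown either direction. The median SD of the ratio over the 1033 measured probes printed 10 times, with 8 or more spots usable, was 0.16, below that of Gja1.

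Gjc1, connexin 45, which forms channels of low conductance in developing heart, muscle and bone, read 368 with OS and 317 with OS+melatonin from 1 spot. Its log2 ratio was 0.16, close to those of Cdh2 and Gja1. The error of the log2 ratio, calculated from the software's error estimates for the 2 spots, was 0.21, larger than the Gjc1 ratio. That estimate covers the reading of a spot and nothing of the cultures.

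Gja5, connexin 40, a connexin of arterial endothelium and of the conduction system of the heart, had the highest ratio of the 7 measured genes. Its 1 spot read 152 ± 15.8 with OS and 215 ± 22.4 with OS+melatonin (the software's error estimate for each spot). The signal was thus higher on the melatonin array before scaling too, unlike those of Gja1 and Gjc1. After scaling the log2 ratio was 0.88 (1.84-fold), with an error of 0.21 calculated from the software's estimates on the 2 arrays. Gja5 was the only measured gene of the 10 at 1.5-fold or more, which 2.03% of measured genes reached upward. Among 1995 measured probes of like brightness, 1.35% had a ratio at least as high, and the SD of their ratios was 0.39. No other probe read Gja5, so its ratio could not be compared between probes.

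Gja4, connexin 37, another connexin of arterial endothelium, read 15.7 with OS and 12.9 with OS+melatonin, both below the lowest signal called well above background (20.7 and 29.6). Both lay above every negative control spot of their array, and the scanner software called both positive and significant. Gjb2, connexin 26, of skin, liver and the inner ear, was not well above background in any of its 8 usable spots. They read between 4.22 and 8.15, with a median of 4.62, on the OS array, and between 6.44 and 22.2, with a median of 12.4, on the melatonin array. The scanner software called 4 of 8 positive and significant on the OS array and 6 of 8 on the melatonin array, where the median also lay above every negative control spot. The negative control spots also stood higher on the melatonin array after scaling, by 0.89 in the log2 ratio of their medians. No ratio is given here for Cdh1, Gja4 and Gjb2. In the RefSeq table Gjb2 adjoins Gjb6, connexin 30, which was likewise short of that call on both arrays.

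**Figure D2:**
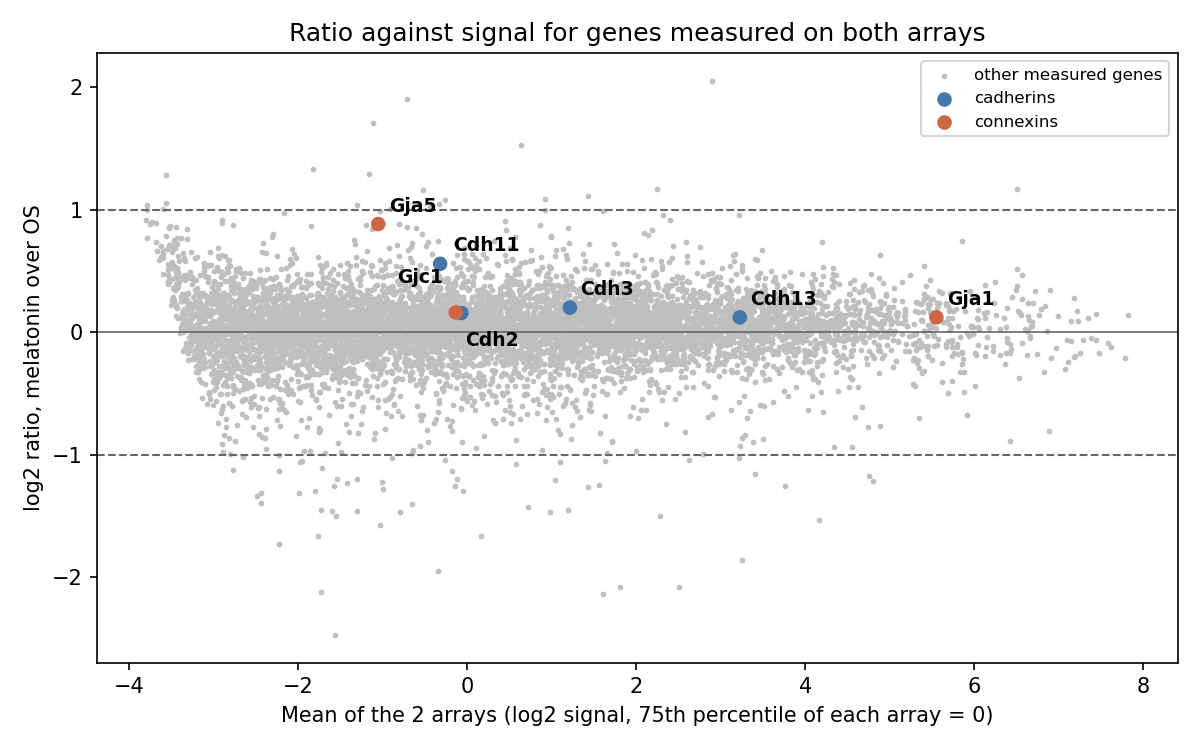
The log2 ratio of OS+melatonin over OS (vertical axis) against the mean log2 signal of the 2 arrays (horizontal axis, 75th percentile of each array at 0) for the genes measured on both arrays. Grey points are all 8231 measured genes, blue points the cadherins and orange points the connexins; dashed lines mark 2-fold, which none of the 7 coloured genes reaches, with Gja5 at 0.88 the nearest.

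The arrays carried probes for the label's cell type and for others that such a culture could hold. Of the mesenchyme list of dental papilla cells, all 12 genes on the array were measured, from Msx2 at percentile 54.6 of the OS array to Col1a1 at 99.97. Their median log2 ratio was 0.18, with 10 of 12 above 0, beside 0.16 for the 7 measured cadherins and connexins, and their summed scaled signal was 359 with OS and 388 with OS+melatonin. Of the epithelial list 1 of 11 was measured, Tp63, whose probes gave ratios of -0.50 and 0.45, and the epithelial adhesion gene Cdh1 was not well above background. The summed signal of that list, scaled, was 1.15 with OS and 1.47 with OS+melatonin. These list sums take in every gene on the array, measured or not, and 10 of the 11 epithelial genes were not measured. The negative control spots, scaled, also stood higher on the melatonin array, by 0.89 in log2. Of the endothelial list 3 of 9 were measured (Cdh5, Erg and Sox18), and Tie1, Tek, Emcn and Cldn5 were not well above background on any array. Pecam1 and Kdr were well above background with OS only. So were genes of other marker lists: Krt14, Krt18, Rgs5, Kcnj8, Mbp, Myog, Des and Myh3. No marker gene was well above background with OS+melatonin only. Over all probes 55.2% were well above background with OS and 48.4% with OS+melatonin. Pecam1, an adhesion protein of endothelium, read 99.9 and 26.2, at least 2.59-fold lower with melatonin, and Kdr, a VEGF receptor, read 76.4 and 27.6, at least 1.98-fold lower. The summed scaled signal of the endothelial list was 4.14 with OS and 3.56 with OS+melatonin, and its brightest gene was Erg. Of the mural cell list 5 of 8 were measured, with a sum of 78.5 and 91.1, led by Acta2. The part of any such cell in the Gja5 and Cdh11 ratios was not tested, and in a culture read as a whole, fewer cells of a type and less RNA per cell cannot be told apart. For Schwann cells and neurons (3 of 8 measured) the sums were 2.53 with OS and 2.59 with OS+melatonin. For macrophages (5 of 8) they were 3.36 and 2.43, and for skeletal muscle (2 of 7) 14.8 and 9.77, led by Actc1. Of the 5 measured macrophage genes 4 had ratios below 0. Lyz2, read by 1 spot, was 5.54-fold lower and the only 1 past 2-fold. Cd14, the brightest, stood at -0.069, and Csf1r was above 0 at 0.20. The cadherins Cdh19 of Schwann cells and Cdh15 of muscle were not well above background. Other genes of the same lists were measured: Sox10, S100b and Tubb3 of the first, and Actc1 and Myh8 of the second.

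Other genes of cell contact, from 9 lists that the 10 genes do not belong to, gave a background for these values. Of 105 listed genes 85 were on the array and 40 were measured. Their median log2 ratio was 0.011, with 20 above 0 and 20 below, 0 at least 2-fold higher and 1 at least 2-fold lower. Of 14 other cadherins on the array only Cdh5 was measured, at -0.085. Of 14 other connexins and pannexins, channel proteins related in form, 2 were measured. They were Panx3, a pannexin of bone and cartilage, at 0.19, and the broadly expressed Panx1 at -0.18. The lens connexin Gja3, chosen after its values were seen, was well above background on the melatonin array only. It read 38.6 with OS+melatonin against 22.2 with OS, from 1 spot. The 2.27-fold ratio of these signals after scaling lies near the background of both arrays and is not a bound.

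The proteins that cadherins hold inside the cell were mostly measured. Of the catenins and linkers 9 of 11 on the array were measured, with a median of -0.016, 4 above 0 and 5 below. The largest ratios were those of Ctnnal1, related to α-catenin, at -0.36, and Jup, plakoglobin, at -0.34. β-catenin (Ctnnb1), chosen after its value was seen, stood at 0.063, with signals of 526 and 422. Of the nectins, adhesion proteins that assemble beside cadherins, 2 of 4 were measured: Pvr at -0.18 and Nectin2 at 0.027.

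Among the partners of connexins 9 of 11 were measured, with a median of 0.069. Ccn3, a matricellular protein that binds connexin 43, was highest at 0.41, with signals of 1601 and 1632. Cav1, caveolin 1, was lowest at -0.26. Tjp1, the scaffold ZO-1 that binds the tail of connexin 43, chosen after its values were seen, gave 0.0018 from a probe with 10 spots and -0.011 from another.

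The transcription factors known to repress Cdh1 were all measured, 6 of 6 on the array, with a median of 0.15. Tcf4 had the largest ratio at 0.44 and Twist1 the next at 0.25. Snai1, chosen after its values were seen, read 11567 and 9426, a ratio of 0.086, beside a Cdh1 signal that was not well above background on any array.

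All 8 proteases and γ-secretase genes of cadherin cleavage on the array were measured, with a median of 0.00046. Ncstn, nicastrin, a γ-secretase subunit, was the 1 gene of the 40 past 2-fold, at -1.04. Its probes differed, at -1.66 and -0.43, so that the gene mean passes 2-fold through 1 of them. None of 6 desmosome genes on the array was measured. Of 11 tight junction genes 3 were measured, with a median of -0.047, the largest ratios being Jam3 at 0.31 and Cldn12 at -0.17.

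**Figure D3:**
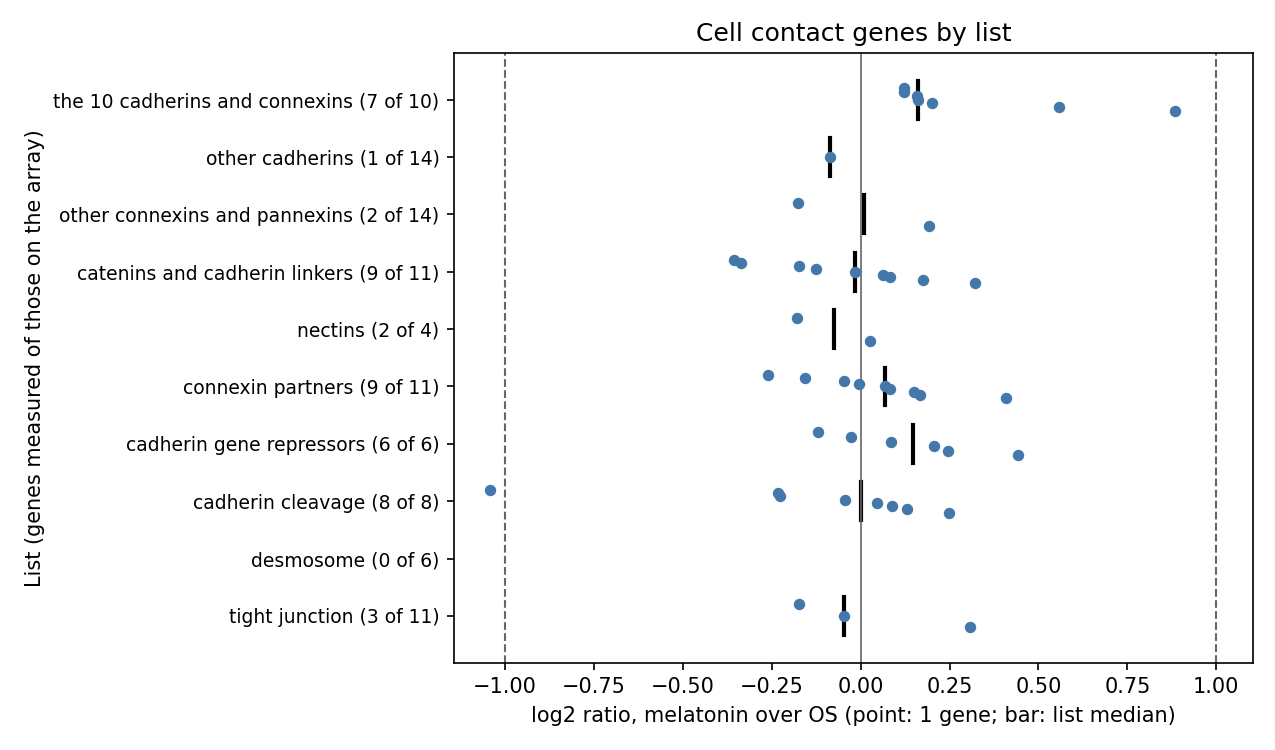
The log2 ratio of OS+melatonin over OS (horizontal axis) of each measured gene, by list (rows, with the number measured of those on the array); vertical bars are list medians and dashed lines mark 2-fold. The 7 measured cadherins and connexins have a median of 0.16, and Ncstn at -1.04 is the only point past a dashed line.

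**Figure D4:**
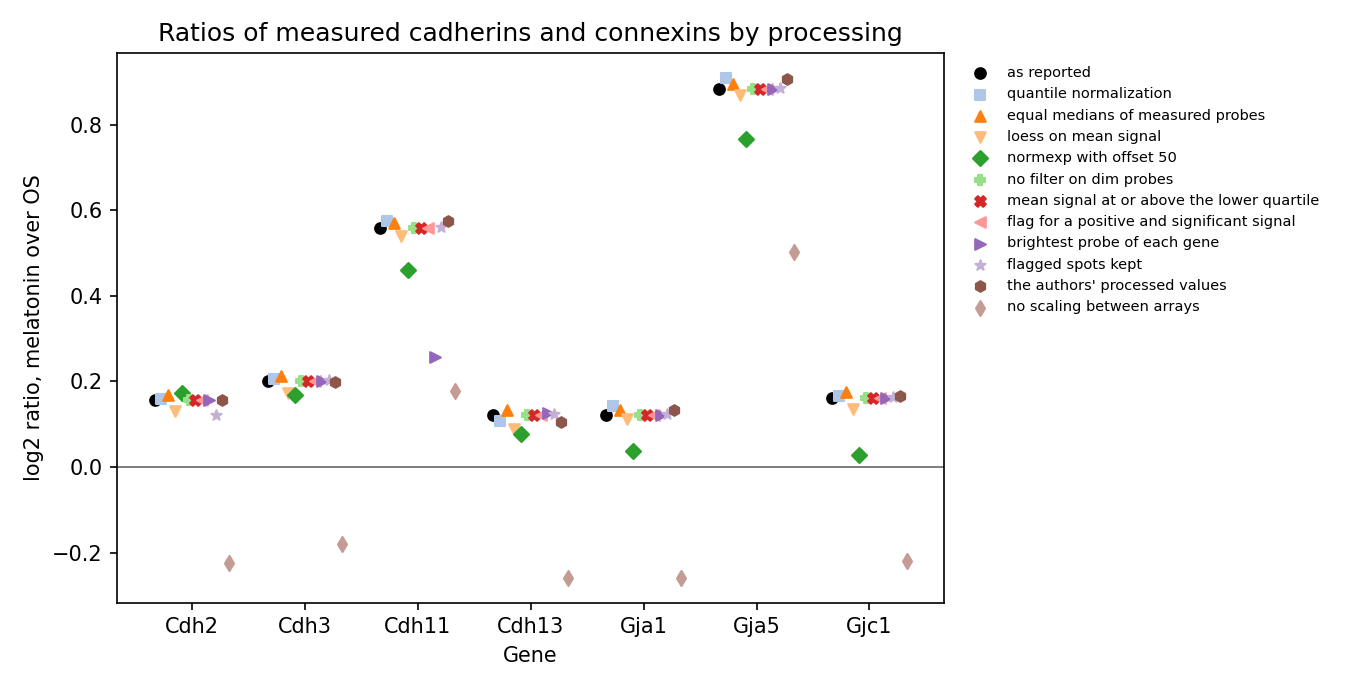
The log2 ratio (vertical axis) of each of the 7 measured genes (horizontal axis) as reported (black) and under the other ways of processing the same arrays, 1 symbol for each. The ratio of Gja5 lies between 0.77 and 0.91 in every planned setting, and without scaling between arrays all points move down by 0.38.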

How the data were processed

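Total RNA of 2 samples was labelled with Cy3 per the labels' protocols and read on Agilent arrays of design 028282. Agilent Feature Extraction 11.0.1.1 made the deposited intensity values, per the file headers, and background-subtracted and detrended the processed signal. The authors' series table holds log2 values with a normalization not given in the sources. Deposited flags mark control, outlier and well above background spots. The design annotation names build rn4; symbols came from RefSeq accessions of GRCr8 (59.3% of probes), so probes are given no coordinates; promoter windows and sequences are RefSeq's for GRCr8.

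From these, 937 outlier spots were left out, log2 processed signals were averaged per probe, each array's 75th percentile was subtracted, and measured probes were averaged per gene. A probe was measured where most of its usable spots were well above background on both arrays. The cadherin and connexin genes, and the other lists, were chosen with earlier results of these data known. The text names all 10 genes and, per other list, genes past 2-fold or else the 2 largest ratios. With 1 array per group no p-value is given, and the number of arrays limits precision. Background, scaling, filter, probe and threshold alternatives were run with Python 3.11.15 and limma 3.58.1. The gene step was tested on simulated data. Some results on neighbouring genes are not reported here.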

Additional observations from a re-analysis of the deposited data

How the results depend on the processing

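The 7 measured ratios were above 0 in all 10 planned settings. These covered scaling, background correction, filters, probe choice, flagged spots and the authors' values. The filter settings left the 7 ratios unchanged, so their sign there was fixed in advance. Of all genes, between 51.1% (loess) and 67.9% (no filter on dim probes) were above 0 in these settings. Under normexp and with no filter, 4 of the 7 lay above the median of all genes. Gja5 ranged from 0.77 to 0.91 and Cdh11 from 0.26 (brightest probe alone) to 0.57, while Gja1 and Gjc1 fell to 0.037 and 0.028 under normexp (all genes: median 0.091). With no scaling between arrays, an alternative added after seeing the data, the values were -0.22 for Cdh2, -0.18 for Cdh3, 0.18 for Cdh11, -0.26 for Cdh13, -0.26 for Gja1, 0.50 for Gja5 and -0.22 for Gjc1; the median of all genes was then -0.34. The count of the 10 genes at least 2-fold higher was 2 with no filter on dim probes (Cdh1 and Gjb2, neither well above background). In that setting 1860 of all 15164 genes were at least 2-fold higher. At a fold of 1.5 the count was 1, beside 2.03% of measured genes. Where probes needed only a positive, significant signal, 8 of the 10 genes were measured, Gja4 among them, as were 10925 genes in all. List medians moved with the few genes behind them. The other cadherins stood at -0.26 under loess, 0.18 under normexp and 0.70 with no filter; the other connexins and pannexins at 0.88 with no filter, -0.18 with the lower-quartile filter and 0.19 where probes needed only a positive, significant signal; with no filter the nectins stood at 0.47 and the tight junction genes at 0.71. These were counts of 1 to 14 genes. No paired analysis was possible because each group has 1 array. With 1 array a group the spread between cultures is unknown.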
